A study of Rattus norvegicus with 13 samples.

Results

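The cell proliferation genes are 37 genes that dividing cells switch on, from replication licensing factors to mitotic kinases, measured in the thyroid of 13 male Wistar rats. They were taken by gene symbol from the 36174 gene names on the array, and each gene was represented by its brightest probe. The list was drawn up with earlier results of these data known. All 37 had a probe, and 35 cleared the background by the scanner software's flag (well above background) on 6 or more arrays and were tested. The brightest probes of Cdc25c and Aurkb reached that level on 5 and 4 arrays and were not tested.

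The rats were the progeny of dams that had been gavaged once a day in mid-pregnancy with potassium iodide (KI-treated group, 6 animals) or with saline (control group, 7 animals). Thyroids of the progeny were taken about a month after weaning. KI floods the thyroid with stable iodine and so keeps it from taking up radioactive iodine, and the study asked what repeated doses in the dam leave behind in the offspring. The litter of each animal is not given in the sources used here, so littermates, which share a dam and her treatment, could not be told apart, and p-values measure only the spread between these 13 samples.

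A dividing cell passes through a fixed programme. E2F transcription factors and cyclin E open the S phase, the MCM helicase and the clamp PCNA copy the DNA from nucleotides that enzymes such as ribonucleotide reductase supply, and cyclin B with CDK1 then drives mitosis, where Polo and Aurora kinases and kinesin motors part the chromosomes. Most of these genes are silent in resting cells, so their RNA in a tissue is commonly read as a measure of how many cells are cycling, and the thyroid of a growing rat still adds follicular cells. In a bulk sample, fewer cycling cells and less RNA per cycling cell cannot be told apart.

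Every value below is the log2 processed signal of a probe minus the 75th percentile of its array, called the level. The arrays held 34840 to 41050 gene spots well above background and no saturated spot. Controls 4 and 6 stood apart, with a median Spearman correlation of 0.952 and 0.965 with the other arrays, against 0.976 to 0.981 for the remaining 11. They also had the lowest 75th percentiles, at 290 and 242 intensity units against 358 to 547 elsewhere. In KI-treated 1, all 13 thymocyte markers on the array were well above background, against 3 to 6 of them in the other animals. Results that rest on these animals are therefore given with and without them. The thyroid label itself held in every animal, since the summed signal of the 10 follicular cell markers, in log2 relative to the 75th percentile, lay between 10.2 and 10.9.

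In these thyroids the proliferation genes differed strongly from animal to animal and nearly in unison. The median within-group SD of the 35 genes was 0.70 on the log2 scale, against 0.31 over all 25650 tested probes with complete values. Of the 35, 33 lay above that median, and 20 lay above the 90th percentile of all probes, an SD of 0.64. Between the lowest and the highest animal, single genes differed from 1.87-fold (Tyms, thymidylate synthase) to 10.4-fold (Cdca8, a subunit of the chromosomal passenger complex that was well above background on 10 arrays), with a median of 4.16-fold.

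Mki67, the nuclear antigen used to mark cycling cells, lay between -0.25 and 1.50 among KI-treated animals (median 0.33) and between -0.16 and 1.80 among controls (median 0.86). It was high in KI-treated 1 and 4 and in controls 3, 4 and 6 and low in KI-treated 2 and 3 and control 1, so both groups held both extremes. Cdk1, the kinase that drives entry into mitosis, ran from 0.13 to 2.22 among KI-treated animals (median 0.81) and from 0.35 to 2.37 among controls (median 1.57). KI-treated 4 and controls 3, 4 and 6 were its 4 highest animals and KI-treated 2 and 3 and control 1 its lowest, with KI-treated 1 nearer the middle at 1.46. Rrm2, the regulated subunit of ribonucleotide reductase, ran from 0.51 to 2.98 (median 1.51) and from 0.63 to 2.94 (median 2.11) in the KI-treated and the control group, a 5.5-fold span over the 13 animals. Its 3 lowest animals were KI-treated 2, KI-treated 3 and control 1.

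**Figure D1:**
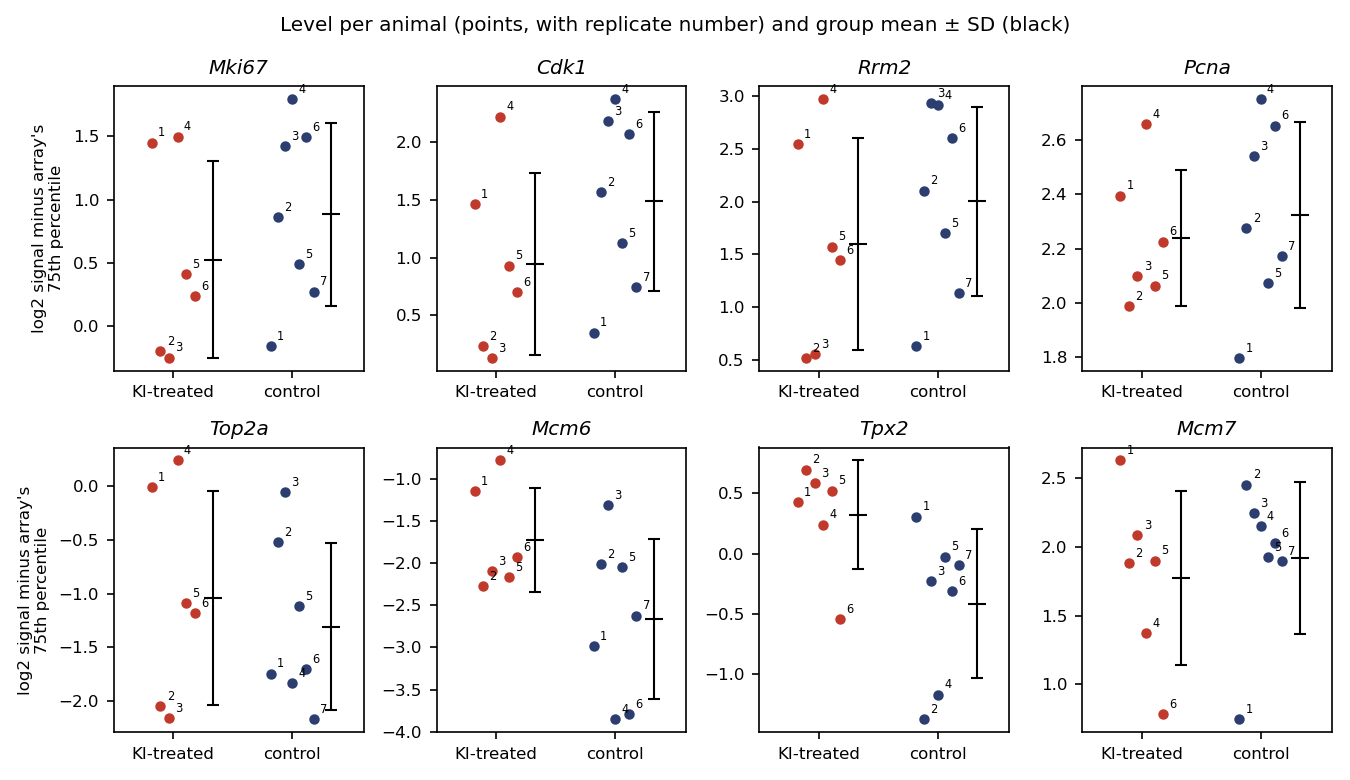
Level of 8 proliferation genes (log2 signal minus the 75th percentile of the array) in each KI-treated (red, n = 6) and control (blue, n = 7) animal, numbered by replicate, with the group mean ± SD in black. Mki67, Cdk1, Rrm2 and Pcna were all high in KI-treated 4 and controls 3, 4 and 6, while Mcm6 and Tpx2 were low in control 4 and Mcm7 was low in control 1 and KI-treated 6.

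The 5 genes with the largest within-group SD were Bub1b (1.02), Mybl2 (1.01), Rrm2 (0.95), Ccna2 (0.91) and Top2a (0.88). Bub1b, a checkpoint kinase that holds cells until all chromosomes are attached, ran from -4.84 to -2.54 in the KI-treated group and from -5.69 to -2.69 in the control group, but it was well above background on only 6 arrays. Mybl2, a transcription factor of the late cell cycle, ran from -4.97 to -1.92 and from -3.82 to -2.03. Ccna2 (cyclin A2) ran from -2.19 to 0.17 and from -2.01 to 0.16. The groups overlapped for each of these genes.

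The smallest SDs belonged to Mcm2 (0.30), Pcna (0.30) and Tyms (0.34). Mcm2, a subunit of the replicative helicase, lay between 2.72 and 3.32 among KI-treated animals (median 2.94) and between 2.55 and 3.47 among controls (median 2.97). Pcna, the sliding clamp of DNA polymerase, lay between 1.99 and 2.66 (median 2.16) and between 1.80 and 2.75 (median 2.28). Both genes also serve cells outside the S phase or persist in them, and their span over the animals was below 2-fold, at 1.90-fold and 1.94-fold. Of the 35 genes, 11 lay on average above the 75th percentile of the array, with Mcm2 at 3.0, Pcna at 2.28, Mcm7 at 1.85, Rrm2 at 1.82 and Mcm3 at 1.53. The lowest were Cdca8 at -3.92, Bub1b at -3.70 and the centromere protein gene Cenpf at -3.27. These levels also depend on the probe, so they do not rank the RNAs.

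The mean deviation of the 35 genes from their own means put the animals in an order that mixed the groups. KI-treated 4 stood highest at 0.77, followed by control 3 at 0.68, KI-treated 1 at 0.53, control 4 at 0.43, control 6 at 0.36 and control 2 at 0.21. KI-treated 5 lay at -0.10, control 5 at -0.12 and KI-treated 6 at -0.28. Control 7 at -0.52, KI-treated 2 at -0.62, control 1 at -0.65 and KI-treated 3 at -0.69 were lowest. The spread was thus as wide within the KI-treated group, from -0.69 to 0.77, as over all 13 animals.

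Single genes followed this order closely, which is partly built in, as the order is the mean of these same genes. The shares of all tested probes given beside the counts do not adjust for that. KI-treated 4, control 3 and KI-treated 1 were each among the 6 highest animals for 34 of the 35 genes, against 42.0%, 47.8% and 34.9% of all tested probes. KI-treated 4 had the highest value of the 13 animals for 14 of the genes, where it was highest for 6.54% of all tested probes. Control 4 was highest for 10 genes (28.6%), near its 28.4% of all probes. KI-treated 3 was lowest for 11 genes and control 1 for 9, against 5.11% and 10.6% of all probes.

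**Figure D2:**
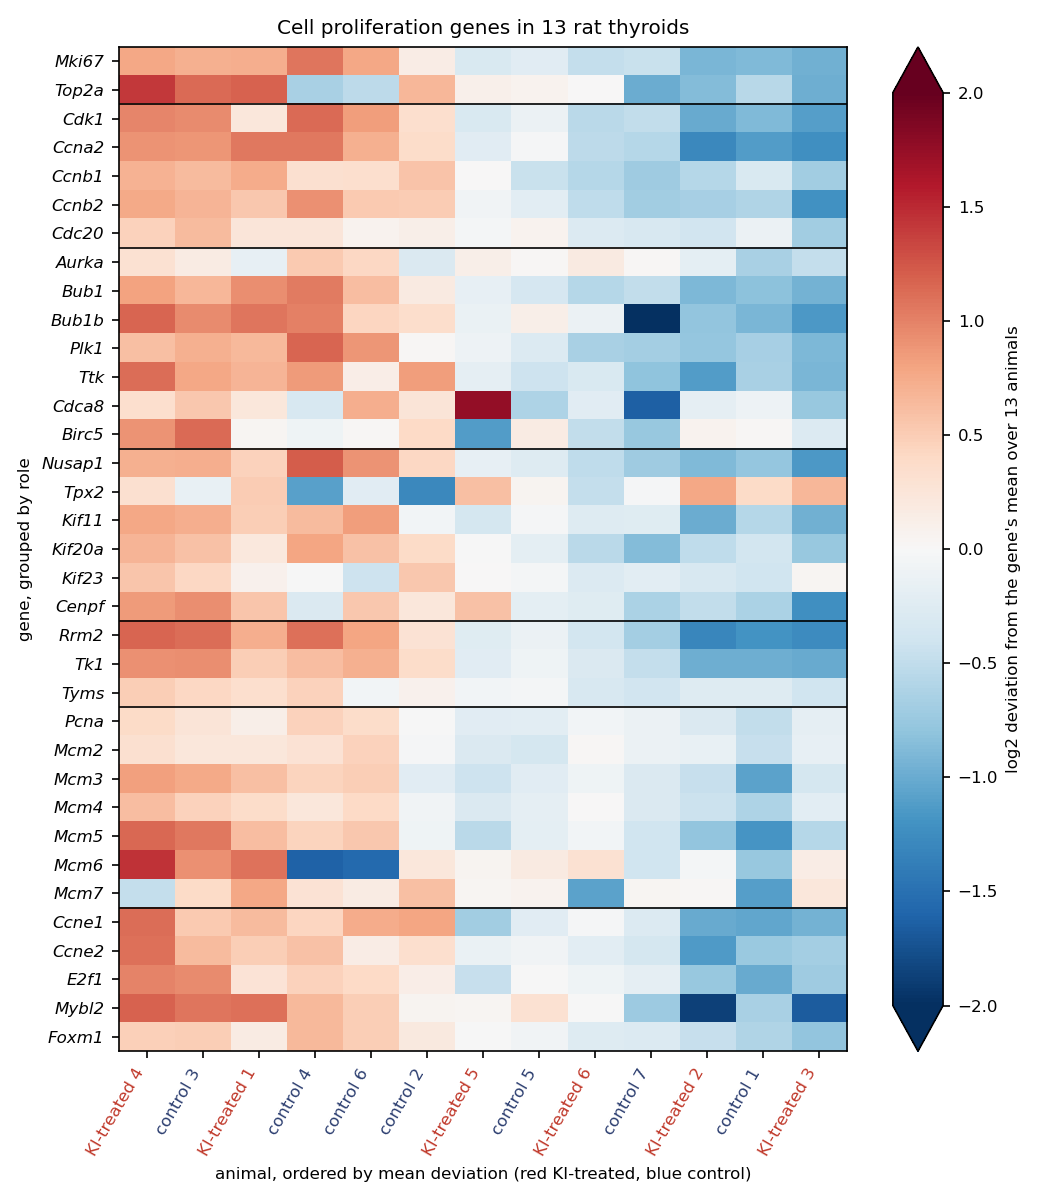
Deviation of each of the 35 tested genes (rows, by role) from its own mean over 13 animals, in log2 units, with animals (columns) ordered by their mean deviation and coloured by group. Of the 35 rows, 31 lie above their mean at KI-treated 4 (mean 0.77) and below it at KI-treated 3 (mean -0.69), and the exceptions are Tpx2, Kif23, Mcm6 and Mcm7.

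Co-variation was tested for all 595 pairs of the 35 genes by Pearson's r after subtraction of group means, with permutation p-values from 100000 shuffles of the animals within groups. After Benjamini-Hochberg adjustment 410 pairs passed 0.05, all with a positive r, and the median r was 0.81. By Spearman's rho 413 pairs passed, 394 positive and 19 negative, and all 19 negative pairs held Tpx2. An r of at least 0.8 was found for 304 of the pairs (51.1%), against 2.53% of all pairs of tested probes, whose median r was 0.01. Pairs of the same role had a median r of 0.85 and pairs of different roles 0.81. Within single roles the median r ran from 0.42 for the licensing and clamp genes to 0.90 for the nucleotide supply genes.

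The closest pair was Mki67 and Bub1, a checkpoint kinase (r = 0.993, rho = 0.989), followed by Rrm2 and Tk1 (thymidine kinase, r = 0.991) and by Mcm4 and Mcm5 (r = 0.990). Each of these had a permutation p of 1e-05, the smallest that 100000 shuffles can give. Of the other 34 genes, 25 had an r of at least 0.8 with Mki67. Among them were all tested cyclins with Cdk1 and Cdc20 (5 of 5), all nucleotide supply genes (3 of 3), all G1/S cyclins and transcription factors (5 of 5), 5 of 7 licensing and clamp genes, 4 of 7 mitotic kinases and checkpoint genes and 3 of 6 spindle genes. For Foxm1, the transcription factor of the G2 genes, r with Mki67 was 0.96, for Ccna2 0.98, for Plk1 (Polo kinase) 0.98 and for E2f1 0.90. The share of all tested probes with an r of at least 0.8 with Mki67 was not counted.

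The pattern did not rest on the animals that stood apart. Without KI-treated 1, 394 pairs passed, and without controls 4 and 6, 445 passed with a median r of 0.87. With slide means subtracted in place of group means, 375 of the 595 pairs passed (median r 0.86), and with scan session means subtracted 396 passed (median r 0.83). Control 7 was alone on its slide and was left out of the former. Leaving out single animals gave 367 to 428 pairs, of which 7 were negative without KI-treated 6 and 1 without control 2.

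**Figure D3:**
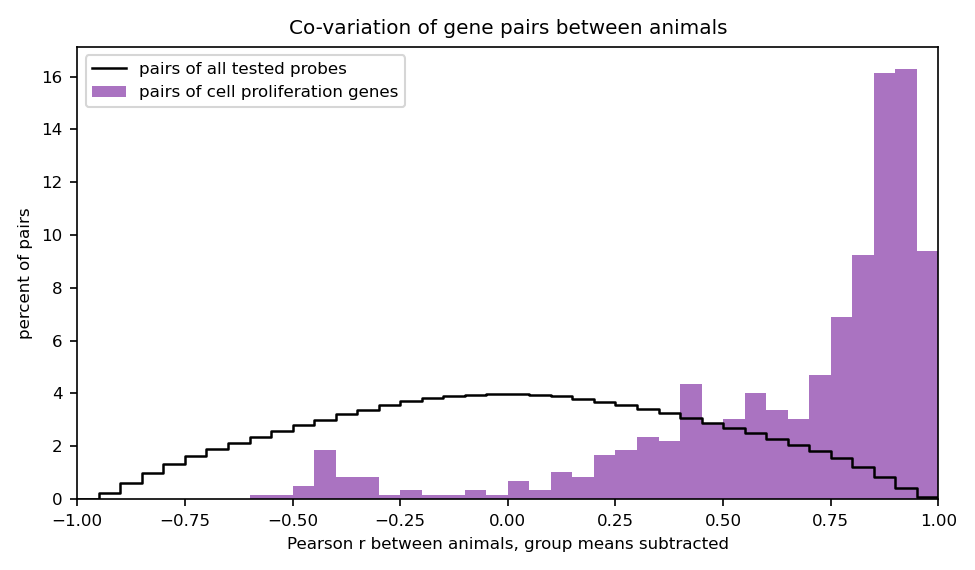
Share of pairs (percent) by Pearson r between animals after subtraction of group means, for the 595 pairs of proliferation genes (purple bars) and for all pairs of tested probes (black line). The proliferation pairs pile up above 0.8 (51.1% of them), where 2.53% of all probe pairs lie.

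A handful of genes did not follow. Tpx2, which loads the Aurora A kinase onto the spindle, passed in 0 of its 34 pairs by Pearson's r (median r -0.38) and ran against Mki67 in rank (rho = -0.70, adjusted permutation p = 0.0182). Without controls 4 and 6, 17 of its 34 pairs were still negative past the threshold by Spearman's rho. Mcm7, a helicase subunit, passed in 0 pairs (median r 0.33), with 0.75 in control 1 and 0.79 in KI-treated 6 against 1.37 to 2.63 in the other animals. Cdca8 passed in 3 pairs (r with Mki67 0.43) and Birc5 (survivin) in 6 (r with Mki67 0.45).

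For Mcm6, another helicase subunit, the exception came from controls 4 and 6. The Mcm6 probe was not well above background on all arrays, and these controls had the lowest 75th percentiles (290 and 242 intensity units). Whether dim signal lowered its readings there was not tested. Mcm6 read -3.85 and -3.79 in controls 4 and 6 against -2.98 to -0.78 in the other 11 animals. Its r with Mki67 was 0.19 with all animals and 0.94 without these controls. Top2a (topoisomerase II alpha, which untangles replicated chromosomes) likewise had an r of 0.65 with Mki67 with all animals and 0.95 without them. In control 4 Top2a lay at -1.83 and in control 6 at -1.70, while KI-treated 4, KI-treated 1 and control 3 had 0.24, -0.01 and -0.06. The cytokinesis motor gene Kif23 went from 0.50 to 0.78.

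Since the genes move together, their promoters are shown for what they share in sequence. RefSeq promoters (GRCr8, 250 bases before to 50 after a transcription start) were found for 29 of the 37 genes. CCAAT, the box bound by NF-Y, occurred on either strand in 21 of the 29 (72.4%), against 37.5% of all 33469 promoters of the same length. The cell cycle homology region (CHR), searched as TTTGAA or TTCGAA on both strands, occurred in 16 (55.2% against 19.7%). E2F strings, searched as TTTCCCGC, TTTGGCGC, TTTCGCGC or TTTGCCGC on both strands, occurred in 7 (24.1% against 2.14%). CHR and CCAAT together occurred in 14 (48.3% against 7.95%). The strings can overlap, as where a CHR runs into a reversed CCAAT. A match is a match of letters and not a bound site.

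The promoters of Mki67 (chr1:199952544-199952843, minus strand), Cdk1 (chr20:19265043-19265342, plus strand), Bub1 (chr3:135504872-135505171, minus strand), Mcm5 (chr19:13488563-13488862, plus strand), Mcm6 (chr13:42404303-42404602, minus strand) and Mcm7 (chr12:22163129-22163428, minus strand) are given here 5′ to 3′, with the strings above in capitals. Mki67 and Cdk1 stand for the mitotic genes, Mcm5 for the licensing genes that followed Mki67, and Mcm6 and Mcm7 for those that did not with all animals.
Mki67: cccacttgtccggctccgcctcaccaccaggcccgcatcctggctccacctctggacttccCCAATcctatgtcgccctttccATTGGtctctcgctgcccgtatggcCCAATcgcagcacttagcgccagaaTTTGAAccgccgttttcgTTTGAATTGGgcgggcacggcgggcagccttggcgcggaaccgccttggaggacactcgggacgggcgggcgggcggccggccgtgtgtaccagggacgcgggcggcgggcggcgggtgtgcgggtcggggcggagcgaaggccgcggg
Cdk1: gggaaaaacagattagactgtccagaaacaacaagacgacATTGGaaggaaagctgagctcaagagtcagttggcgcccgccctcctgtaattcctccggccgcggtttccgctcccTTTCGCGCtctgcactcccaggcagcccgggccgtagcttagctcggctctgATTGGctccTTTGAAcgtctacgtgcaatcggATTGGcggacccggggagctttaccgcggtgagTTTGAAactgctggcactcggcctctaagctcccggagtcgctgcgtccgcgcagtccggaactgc
Bub1: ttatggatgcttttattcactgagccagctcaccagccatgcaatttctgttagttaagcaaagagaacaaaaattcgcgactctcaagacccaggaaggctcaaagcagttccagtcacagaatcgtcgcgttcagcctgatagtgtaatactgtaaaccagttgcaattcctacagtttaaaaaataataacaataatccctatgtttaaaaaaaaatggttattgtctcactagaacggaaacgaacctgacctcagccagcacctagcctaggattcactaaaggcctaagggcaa
Mcm5: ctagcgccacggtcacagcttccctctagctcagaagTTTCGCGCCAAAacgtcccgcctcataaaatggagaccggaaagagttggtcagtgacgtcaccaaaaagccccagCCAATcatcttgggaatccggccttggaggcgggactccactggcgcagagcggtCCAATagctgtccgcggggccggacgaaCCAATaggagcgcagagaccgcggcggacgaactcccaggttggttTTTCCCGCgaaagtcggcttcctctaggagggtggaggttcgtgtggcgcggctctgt
Mcm6: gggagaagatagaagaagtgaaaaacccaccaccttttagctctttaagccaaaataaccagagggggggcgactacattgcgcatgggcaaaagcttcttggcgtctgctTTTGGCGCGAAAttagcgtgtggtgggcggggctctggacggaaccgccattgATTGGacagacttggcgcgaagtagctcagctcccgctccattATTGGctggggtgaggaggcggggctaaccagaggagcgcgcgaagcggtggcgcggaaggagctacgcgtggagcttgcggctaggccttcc
Mcm7: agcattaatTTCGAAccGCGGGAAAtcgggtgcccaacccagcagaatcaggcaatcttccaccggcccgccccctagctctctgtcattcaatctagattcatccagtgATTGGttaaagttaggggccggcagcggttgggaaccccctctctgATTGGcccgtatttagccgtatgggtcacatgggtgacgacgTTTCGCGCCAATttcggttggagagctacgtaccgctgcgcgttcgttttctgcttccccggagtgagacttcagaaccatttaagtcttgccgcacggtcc
The Mki67 window held 4 CCAAT and 2 CHR strings, and that of Cdk1 held 3 CCAAT, 2 CHR and 1 E2F string. Bub1, whose r with Mki67 was highest, held none of them in this window. Mcm7, which passed in no pair, held 3 CCAAT, 1 CHR and 2 E2F strings, and Mcm5 and Mcm6 held CCAAT and E2F strings without a CHR.

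Between the KI-treated group and the control group, no proliferation gene passed the threshold after adjustment over all probes (limma, Benjamini-Hochberg, adjusted p from 0.364 to 0.988), as 0 of all 25713 tested probes did. Without adjustment, 2 of the 35 genes (Tpx2 and Mcm6, both higher in the KI-treated group) lay below 0.05 in limma, against 12.7% of all tested probes, of which 5.71% were higher and 7.01% lower. A count of 2 is too small to tell the share of the genes from that of all probes. Of the 35 genes, 9 had a higher and 26 a lower mean in the KI-treated group. The median log2 difference was -0.22, against -0.08 over all tested probes. Without controls 4 and 6, 14 genes were higher and 21 lower. The share of all tested probes with a lower mean in the KI-treated group was not counted. For no gene did the groups lie apart without overlap, which 0.581% of all tested probes did.

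By role, the 5 tested cyclins with Cdk1 and Cdc20 had a median log2 difference of -0.35, the 3 nucleotide supply genes -0.34, the 5 G1/S genes -0.27 and the 7 mitotic kinase and checkpoint genes -0.22. The 6 spindle genes had -0.13 and the 7 licensing and clamp genes -0.01. The standard errors of single genes ran from 0.16 to 0.50. Mki67 differed by -0.36 (SE 0.37, adjusted p = 0.619 in limma), Cdk1 by -0.54 (SE 0.39, adjusted p = 0.503) and Top2a by 0.26 (SE 0.44, adjusted p = 0.748). Pcna differed by -0.09 (SE 0.17, adjusted p = 0.789), Ccnb1 (cyclin B1) by -0.12 (SE 0.30, adjusted p = 0.830) and Mcm2 by -0.01 (SE 0.16, adjusted p = 0.978). None of these 6 differences exceeded the spread between animals, and those of Pcna, Ccnb1 and Mcm2 changed sign in at least 1 other way of processing the data. That of Top2a changed sign only when KI-treated 1 and controls 4 and 6 were all left out.

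**Figure D4:**
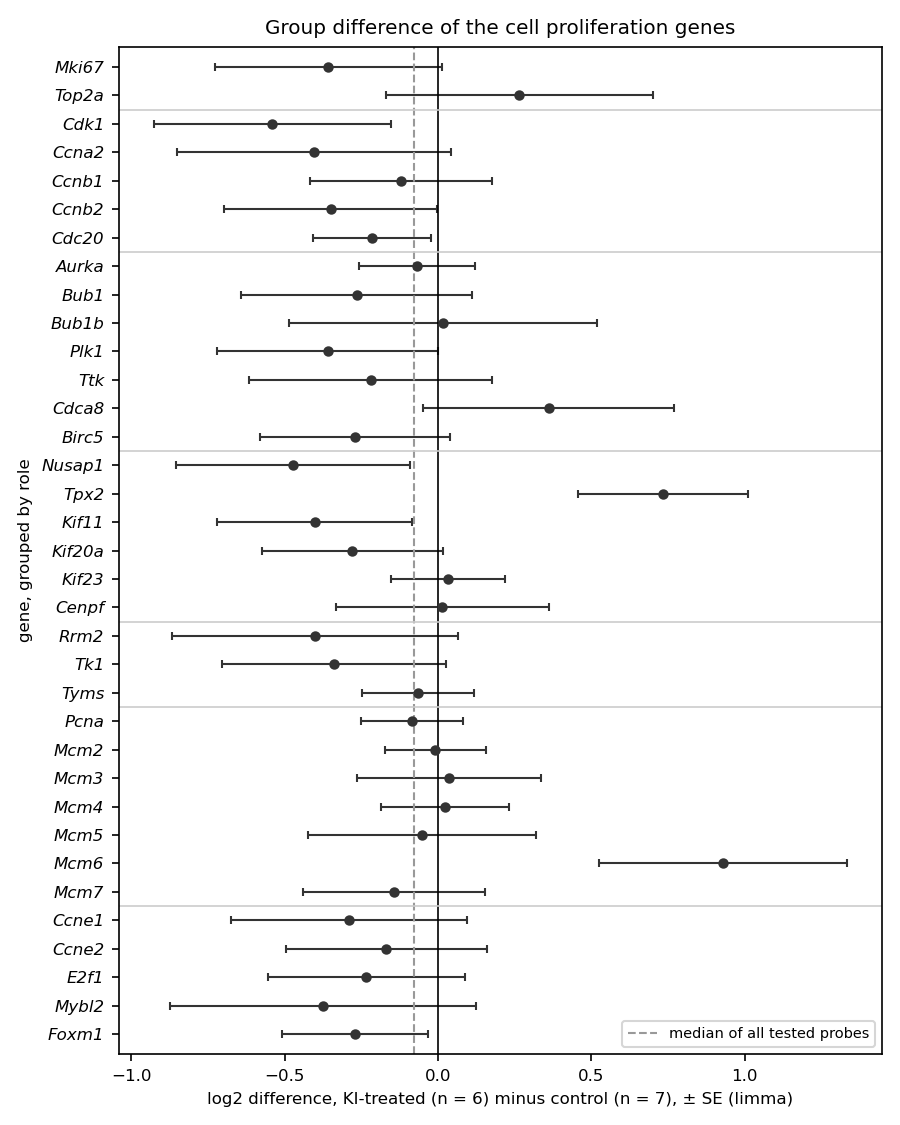
Log2 difference of each tested gene between the KI-treated group (n = 6) and the control group (n = 7) with its standard error from limma, grouped by role, with the median of all tested probes (-0.08) dashed. Most genes lie to the left of 0 with errors that reach or nearly reach it, and Tpx2 (0.73) and Mcm6 (0.93) lie to the right.

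Tpx2 (probe A_44_P515852; chromosome 3, 161778709 to 161820941 in GRCr8) ran from -0.54 to 0.69 among KI-treated animals (median 0.47) and from -1.37 to 0.31 among controls (median -0.23). Controls 2 and 4 were lowest, KI-treated 6 lay among the controls, and the groups overlapped. The difference was 0.73 (SE 0.28, adjusted p = 0.364 in limma, exact permutation p = 0.0373, two-sided), and without controls 4 and 6 it was 0.60 with an exact permutation p of 0.0887. Mcm6 (probe A_44_P276338; chromosome 13, 42379161 to 42404352) ran from -2.27 to -0.78 among KI-treated animals (median -2.01) and from -3.85 to -1.31 among controls (median -2.62). The difference was 0.93 (SE 0.40, adjusted p = 0.385 in limma, exact permutation p = 0.0705), and it fell to 0.47 without controls 4 and 6 (exact permutation p = 0.255). Without these controls 0 of the 35 genes lay below an unadjusted 0.05 in limma.

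The direction of the group difference depended on which animals were set against each other. The arrays lay on 6 slides, of which 5 held both groups. On slide 1 (KI-treated 2 against control 4) the median log2 difference of the 35 genes was -1.23 (-0.25 over all tested probes), and on slide 2 (KI-treated 3 against control 6) it was -1.11 (-0.08 over all probes), with 31 of the 35 genes lower in the KI-treated animal on each. On slide 3 (KI-treated 1 and 6 against control 2) it was -0.08 (-0.03 over all probes), with 24 genes lower. On slide 4 (KI-treated 5 against control 1) it was 0.58 (0.01 over all probes) and on slide 5 (KI-treated 4 against controls 3 and 5) 0.49 (-0.04 over all probes), with 34 of the 35 genes higher in the KI-treated animals on each. The share of all probes higher or lower on each slide was not counted. Each slide compares 1 or 2 animals per group, and as the genes co-vary, the counts are not separate results of single genes. Tpx2 and Mcm6 were higher in the KI-treated animals on all 5 slides, by 0.21 to 1.86 and by 0.47 to 1.70. Both were picked for their group difference over these same arrays, so this is no separate check. The share of all probes higher on every slide was not counted. For Mcm6 the widest gaps, 1.58 and 1.70, were on slides 1 and 2, which held controls 4 and 6.

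Other probes of the same genes gave a partial check. Of the 37 genes 14 had more than 1 probe, and 12 further probes of 9 genes were tested. Their r with the brightest probe of the gene ran from 0.34 to 0.99 and was at least 0.8 for 6 of them. The group difference had the opposite sign for 6 of the 12, which were probes of Mki67, Ccnb2, Tk1, Mcm2, Mcm5 and Foxm1. Each of these was positive where the brightest probe of the gene was negative. A dim further probe of Mcm4 (mean level -4.09) kept the sign. The 3 further probes of Mki67 had an r of 0.93, 0.91 and 0.34 with the brightest, and the last of these, at a mean level of -2.87, was the 1 that gave a positive difference (0.62). For Mcm4, 1 further probe at a near equal level (1.02 against 1.05) had an r of 0.993. Tpx2 and Mcm6 had 1 probe each.

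Thymocytes divide fast, and a thyroid dissected with thymic tissue would carry their RNA, so the thymocyte markers were set beside the proliferation genes. In KI-treated 1 the summed level of these markers was 4.85, against 1.39 to 2.25 in the other 12 animals. Rag1, the recombinase of lymphocyte development, read 0.15 there and -7.23 to -5.65 elsewhere, and Cd3e, part of the T cell receptor complex, read -0.94 against -7.06 to -5.55. KI-treated 1 was highest for 10 of the 13 markers on the array and for 3 of the 35 proliferation genes (8.57%, against 3.48% of all tested probes), and it was among the 6 highest animals for 34 of the 35 (against 34.9% of all tested probes). The part of thymocyte RNA in these values was not tested. KI-treated 4, with the highest mean of the proliferation genes, had the lowest summed thymocyte level (1.39), and 4 of the 13 markers were well above background there.

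Mki67 and Pcna were set against markers of the other cell types a thyroid sample can hold, over 13 animals with group means subtracted. Of the 14 relations to 7 markers, among them Tg, Pecam1, Col1a1, Ckm, Adipoq and Alas2, 0 passed 0.05 after Benjamini-Hochberg adjustment by Pearson's r or by Spearman's rho, with permutation p-values. The strongest was the muscle enzyme gene Ckm, with r = -0.74 (permutation p = 0.00856, adjusted 0.0666) and rho = -0.70 (permutation p = 0.0178, adjusted 0.0612) with Mki67. Cd3e, Cd8b and Rag1 were not tested, as they were well above background on 1 to 3 arrays.

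Over all 48 tested markers of the 11 cell type lists, a family of 96 relations chosen after seeing the data, 2 passed by Pearson's r and 1 by Spearman's rho, and both were with Slc5a5, the sodium iodide symporter by which follicular cells take up iodide. Slc5a5 ran from 5.22 to 6.91 among KI-treated animals (median 5.75) and from 4.72 to 7.08 among controls (median 5.67), highest in controls 4 and 6 and KI-treated 4 and lowest in control 1. With Pcna it had r = 0.95 (permutation p = 4e-05, adjusted 0.00384) and rho = 0.92 (permutation p = 0.00017, adjusted 0.0163). Without the 2 animals farthest from the median of Slc5a5, r was 0.95, and without controls 4 and 6 it was 0.94 (adjusted permutation p = 0.0182, and 0.0811 by rho). With scan session means subtracted in place of group means, r was 0.97 (adjusted permutation p = 0.0106), and with slide means subtracted it was 0.97 as well, where the adjusted permutation p was 0.208 and few rearrangements within slides exist.

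With Mki67, Slc5a5 had r = 0.82 (permutation p = 0.00064, adjusted 0.0307) and rho = 0.75 (permutation p = 0.00496, adjusted 0.159). The rank relation thus missed the threshold, and without controls 4 and 6 that by r did as well (r = 0.77, permutation p = 0.00554, adjusted 0.266). Over the 35 proliferation genes, r with Slc5a5 had a median of 0.74, was at least 0.8 for 9 genes and was lowest for Tpx2 at -0.40. The share of all tested probes with an r of at least 0.8 with Slc5a5 was not counted. As the proliferation genes co-vary with one another, the 9 are not separate relations. Slc5a5 itself differed between the groups by -0.07 (SE 0.37, adjusted p = 0.925 in limma).

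**Figure D5:**
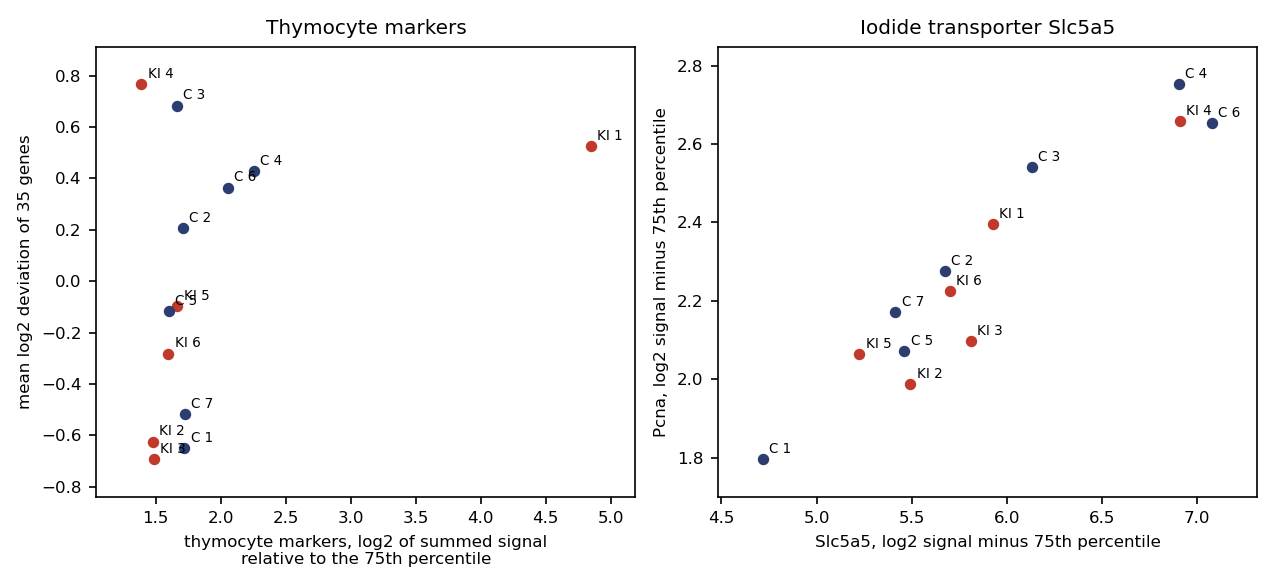
Left, mean log2 deviation of the 35 proliferation genes against the summed log2 level of the thymocyte markers, and right, level of Pcna against level of Slc5a5, with each point 1 animal (KI red, control blue, numbered). KI-treated 1 stands alone in thymocyte markers (4.85), KI-treated 4 has the highest mean deviation of the proliferation genes (0.77), and Pcna rises with Slc5a5 (r = 0.95 after subtraction of group means).

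Other genes of the cell cycle, 77 in 4 lists, were compared in the same way. Of these, 74 were on the array and 61 were tested, and 0 passed after adjustment over all probes. At an unadjusted 0.05 in limma 2 of the 61 were higher and 2 lower after KI, against 5.71% and 7.01% of all tested probes, and their median log2 difference was -0.11, against -0.08 over all tested probes. The count is thus no larger than the background, and the 4 genes are given as values. Rb1, the retinoblastoma brake on E2F, differed by 0.61 (SE 0.19, adjusted p = 0.353 in limma), with -0.56 in control 6 and -0.35 in control 4 below the other controls, and by 0.38 without these 2 controls (exact permutation p = 0.0238, and 0.00874 with all animals). Ccnd1 (cyclin D1) differed by 0.46 (SE 0.17, adjusted p = 0.358 in limma) and by 0.36 without controls 4 and 6. The condensin subunit gene Smc4 differed by -0.27 (SE 0.12, adjusted p = 0.386 in limma) and the centromeric histone gene Cenpa by -0.33 (SE 0.15, adjusted p = 0.389 in limma). Controls 4 and 6 were highest for both, and without them the differences were -0.16 each.

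The co-variation with Mki67 differed in median between these lists, with ranges that overlapped, and the difference between lists was not tested. The share of all tested probes with an r of at least 0.8 with Mki67 was not counted, so none stands beside these counts. Of 24 further mitosis genes, 18 had an r of at least 0.8 with Mki67 (range 0.34 to 0.99, median 0.91), with the spindle protein gene Spag5 and the kinetochore gene Ndc80 highest at 0.99, both named after their values were seen. Of 14 further replication genes, 4 did (Chaf1b, Cdc45, Rrm1 and Fen1, median of the list 0.70). Of 15 G1 cyclins, cyclin-dependent kinases and E2F or RB factors, 1 did (E2f7 at 0.95, median of the list 0.32), and of 8 inhibitors of cyclin-dependent kinases, 1 did (Cdkn2d at 0.83, median of the list -0.07), with a negative r for 5. Rb1 had an r of -0.57 with Mki67 and Ccnd1 0.11.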

How the data were processed

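RNA from 13 thyroids was measured on single-colour Agilent arrays of 62976 features, 58717 of them gene spots for 45598 probes. The authors deposited, per array, the fluorescence intensity of each spot from Feature Extraction 10.7.3.1, background-subtracted and detrended but not scaled between arrays. The deposited table of log2 values follows the median spot signal in rank; its normalization is not given in the sources used here, and it was used as an alternative only. No table held columns of other samples (0). The number of arrays limits the precision.

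After removal of control spots and of spots flagged as outliers, the spots of a probe were log2 transformed and then averaged, and the 75th percentile over the probes of the array was subtracted. The 25713 probes that carried the flag for well above background on 6 or more arrays were tested. This used limma 3.58.1 in R 4.3.3 (lmFit, eBayes, Benjamini-Hochberg over all probes, threshold 0.05). The fit was also run on simulated data, in which 200 of 25650 probes were shifted. Of these 200, it recovered 1 (0.5%) for a shift of 0.5 log2 units, 145 (72.5%) for 1 and 193 (96.5%) for 2. False calls numbered 0, 9 and 14. The shifted probes were drawn from all tested probes, whose median within-group SD was 0.31, against 0.70 for the proliferation genes. Recovery of the proliferation genes by themselves was not simulated. The lack of passing genes thus says little about differences of 0.5 or less. For these genes, the shares do not show that a difference of 1 would have been found. Single genes were also compared by exact permutation (two-sided, all 1716 splits into 6 and 7), which can give no p below 0.000583. Correlations used Python 3.11.15, numpy 2.4.6 and scipy 1.17.1.

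The members and all lists were chosen with earlier results of these data known. Named genes are Mki67, Top2a, Pcna, Cdk1, Ccnb1 and Mcm2, genes with an unadjusted p below 0.05, the 5 largest and 3 smallest in SD, the 5 highest and 3 lowest in level, genes not tested or with disagreeing probes, and thymocyte and follicular markers; genes that broke the common pattern or came closest to it were named after their values were seen. Of the 37 genes, 34 were matched to RefSeq (GRCr8) by accession. Of the 16 thymocyte markers, Ptcra, Themis and Tcf7 were not found on the array under these names. Of the markers set against Mki67 and Pcna, 1 is not reported here by itself but was kept in the counts and in the adjustment of p-values. Replicate numbers were not used to pair the samples in the main fit. The correlation of same-numbered animals over all probes lay between -0.11 and 0.07, which shows no strong pairing but cannot exclude a weak one.

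Alternatives were normexp (offset 50), quantile normalization, the deposited log2 values, other filters, the mean over the probes of a gene, slide, scan session or replicate number as a block, array weights, the methods' t-test and leaving out each array. The 75th percentile over all gene spots, the fits without controls 4 and 6 or also without KI-treated 1, and the family of all tested markers were added after seeing the data.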

Additional observations from a re-analysis of the deposited data

Results flagged for a closer look

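Among the 70 groups of values (35 genes in each group of animals), 2 held an animal whose gap to its nearest neighbour was unusually large for the range of its group, where chance flags about 1 in 20 groups. For Tpx2 in the KI-treated group, KI-treated 6 lay at -0.54 and the next animal at 0.24, a gap of 0.634 of the range of the group. Without KI-treated 6 the group difference of Tpx2 was 0.91 (adjusted p = 0.464 in limma). For Mcm7 in the control group, control 1 lay at 0.75 and the next animal at 1.90, a gap of 0.674 of the range. Control 1 was also lowest of the 13 animals for 9 of the 35 genes, and KI-treated 6 had a similarly low Mcm7 value of 0.79.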

How the results depend on the processing

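The count of 0 probes past the adjusted threshold held in 14 of 15 alternatives; array weights gave 50 (2 higher, 48 lower, no proliferation gene among them), and leaving out single arrays gave 0 to 1, with 1 probe without control 1 or without control 2. Without adjustment, 1906 to 5120 probes lay below 0.05. The split of higher against lower probes moved with the scaling, from 1469 and 1802 to 1790 and 1109 with the 75th percentile over all gene spots, 1825 and 1455 with quantile normalization and 1166 and 3426 with normexp and the 75th percentile. The median of all probes was then 0.00, -0.01 and -0.10. The median difference of the proliferation genes stayed negative in all 15 alternatives, between -0.28 and -0.05, and between -0.40 and -0.04 when single arrays were left out.

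The count of proliferation genes below an unadjusted 0.05 fell from 2 to 1 with normexp and the 75th percentile, with the filter on all arrays (which Mcm6 did not pass), with the methods' t-test and with the replicate block, and to 0 with array weights, without controls 4 and 6, and without these and KI-treated 1. It was 1 to 2 when single arrays were left out. It was 1 without KI-treated 1, control 1, control 4 or control 6, where Mcm6 was lost, and without KI-treated 4 Tpx2 stayed while Cdk1 took the place of Mcm6 (-0.80, lower). Causes were not tested. With the replicate number as a block, which leaves control 7 without a partner, 0 probes passed the adjusted threshold. The median difference of the proliferation genes was then -0.28. The block changed no other call, and as no strong pairing by number was seen, no weight rests on it.

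Differences near 0 changed sign. Top2a became -0.126 without KI-treated 1 and controls 4 and 6. Pcna became 0.0103 with quantile normalization, 0.00628 with the deposited values, 0.0665 without controls 4 and 6 and 0.0351 without KI-treated 1 as well. Ccnb1 became 0.0341 with array weights and ranged from -0.283 to 0.00358 over single arrays left out. Mcm2 became 0.0224 with normexp, 0.113 with quantile normalization, 0.0659 with both, 0.0888 with the deposited values, 0.0807 with the mean over probes, 0.0141 with the session block, 0.0844 with array weights, 0.0699 with the percentile over spots, 0.141 without controls 4 and 6 and 0.0958 without KI-treated 1 as well, and ranged from -0.0863 to 0.0679 over single arrays left out. Mki67 (-0.46 to -0.05), Cdk1 (-0.66 to -0.25), Tpx2 (0.51 to 0.92) and Mcm6 (0.35 to 1.17, in 14 alternatives) kept their direction. Pairs past the threshold numbered 330 to 447 over 12 alternatives, the lowest with 435 pairs under the filter on all arrays. The relations of Mki67 and Pcna to the 7 planned markers gave 0 past the threshold with quantile normalization, with normexp and without KI-treated 1.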
